A study of Mus musculus with 6 samples.

Results

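The SLAM receptor family was followed in LSK cells, the lineage-negative, Sca1+ and c-Kit+ fraction of mouse bone marrow that holds the haematopoietic stem cells and the multipotent progenitors. The members were taken by name: Slamf1, Cd48, Cd244a, Cd84, Ly9, Slamf6, Slamf7, Slamf8 and Slamf9. All 9 genes were measured, by 15 of the 45037 probe sets on the array, and 9 of 18193 genes were members. A probe set is a group of short probes that reads 1 transcript, and a probe set counted only if the annotation gave it to 1 member alone. All mice were C57BL/6 and 6 to 7 weeks old. The 3 WT samples came from 1 wild type mouse each, and the 3 IkL/L samples each from cells of 2 pooled mice that were homozygous for a hypomorphic Ikzf1 allele, which lowers the amount of Ikaros. The mice themselves, and not their LSK cells alone, carried the mutation. Lineage-positive cells had been removed by B220, CD11b, Gr1 and Ter119, and no SLAM antibody entered the sort, so that cells with and without CD150 or CD48 lay in every sample.

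SLAM receptors are surface proteins of blood cells, built of immunoglobulin domains, and most of them bind a copy of themselves on the neighbouring cell. CD244, the product of Cd244a, instead binds CD48. The cytoplasmic tails of Slamf1, Cd244a, Cd84, Ly9, Slamf6 and Slamf7 carry tyrosine switch motifs for the small adaptors SAP and EAT-2, whereas CD48 is held in the membrane by a lipid anchor and Slamf8 and Slamf9 have short tails. In mouse bone marrow the family serves as a code for early cells. Stem cells carry CD150, the product of Slamf1, and lack CD48 and CD244. CD244 and CD48 appear on multipotent and then on more restricted progenitors. Within LSK cells, CD150 and CD48 together with Flt3 separate stem cells from the progenitor subsets named MPP2, MPP3 and MPP4.

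The sequences just upstream of the 3 genes of this code are shown because these genes make up the code of early cells and Ikaros is known to bind DNA at the letters TGGGAA. Each is the 250 bases before a RefSeq transcript start, read 5′ to 3′ on the strand of the gene, with matches to TGGGAA or to its reverse complement in capitals. All lie on the plus strand of build GRCm38.p6, at chr1:171558943-171559192 for Cd244a, chr1:171766882-171767131 for Slamf1 and chr1:171681742-171681991 for Cd48.
Cd244a: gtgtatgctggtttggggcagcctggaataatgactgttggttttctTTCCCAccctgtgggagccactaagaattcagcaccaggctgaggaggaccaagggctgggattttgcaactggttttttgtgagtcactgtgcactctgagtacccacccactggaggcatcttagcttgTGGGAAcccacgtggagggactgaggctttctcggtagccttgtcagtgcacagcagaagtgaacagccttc
Slamf1: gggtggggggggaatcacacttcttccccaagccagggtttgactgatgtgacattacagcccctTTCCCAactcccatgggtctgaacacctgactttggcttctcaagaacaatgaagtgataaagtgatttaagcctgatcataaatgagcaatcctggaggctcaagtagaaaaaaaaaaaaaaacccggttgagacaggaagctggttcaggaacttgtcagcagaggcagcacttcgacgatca
Cd48: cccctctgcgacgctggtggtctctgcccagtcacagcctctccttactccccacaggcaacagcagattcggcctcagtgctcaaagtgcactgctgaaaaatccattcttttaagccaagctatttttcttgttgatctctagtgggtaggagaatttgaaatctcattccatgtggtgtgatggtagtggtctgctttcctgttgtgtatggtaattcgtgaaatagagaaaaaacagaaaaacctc
The Cd244a window held 2 matches, at 72 to 67 bases before the start and, on the opposite strand, at 203 to 198 bases before it. The Slamf1 window held 1, at 185 to 180 bases before the start on the opposite strand, and the Cd48 window held none. The table gave windows for 8 members, of which 2 held a match. Of all 32851 upstream windows of this length 21.59% held at least 1 match and 2.77% at least 2. A match is a description of these letters, and binding was not measured here. The paper found another motif, AGGAA, enriched under Ikaros peaks, and GGAA or GGGA around those shared with Suz12. These were not searched for here, so that the matches are no count of Ikaros sites and do not rank the 3 genes.

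The targeted gene, Ikzf1, read 11.57, 11.59 and 11.44 on WT 1, 2 and 3 and 10.77, 10.85 and 10.93 on IkL/L 1, 2 and 3, in log2 values of the RMA scale (adjusted p = 0.0307 in limma). The log2 fold change was -0.68 by this probe set and -0.21 by the other. The position of these probes in relation to the mutated site was not analysed, so that the values are no check of the labels. Kit, the gene of the sort marker c-Kit, stood at 11.07 to 11.50 on all arrays by its brightest probe set. Its second read 7.15 to 8.48, and the 2 gave log2 fold changes of -0.13 and 0.47, which did not pass. Itgam, the gene of CD11b, read 5.30 on WT 1, above the array medians, and 3.48 to 4.37 on the other arrays. Ly6a, the gene of Sca1, was not analysed here. The array medians were 4.79 to 4.88, and a value near or under them cannot be told from background. The correlations between arrays were 0.986 to 0.995, and WT 2 lay apart from the other arrays on the first principal component (-52.7, against -18.6 to 28.0). The p-values measure the spread between these samples, which for IkL/L is the spread between pools.

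Within the family, the gene that differed between genotypes was Cd244a, which fell in IkL/L cells. By its brighter probe set it read 8.71, 9.27 and 8.79 in WT 1, 2 and 3 and 7.65, 7.82 and 7.75 in IkL/L 1, 2 and 3. Every mutant value lay under every WT value, with WT 2 the highest of all. The means were 8.92 ± 0.30 and 7.74 ± 0.09 (SD, n = 3), a 2.27-fold decrease (log2 fold change -1.18, standard error 0.15, 95% interval -1.54 to -0.82, adjusted p = 0.021 in limma). The second Cd244a probe set read 5.85, 6.06 and 5.79 in WT and 5.25, 5.25 and 5.39 in IkL/L. These groups did not overlap either, but the change did not pass the threshold (log2 fold change -0.60, interval -0.85 to -0.35, adjusted p = 0.071). With the mean of both probe sets the difference was -0.89 and passed (adjusted p = 0.00936 in limma, from a separate fit and adjustment over genes). For the brighter probe set, the log2 fold change was -1.29 to -1.01 with any 1 array left out. The call held without WT 2 (adjusted p = 0.0172 in limma) and without WT 3 (0.0358), and was lost without WT 1 (0.0719), IkL/L 1 (0.127), IkL/L 2 (0.0692) and IkL/L 3 (0.0682).

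Of the 15 SLAM probe sets 1 was called, against 0.557% of all probe sets, and of the 9 genes 1 was called, against 0.989% of all genes (0.242% for genes that fell). Groups did not overlap in 2 of the 15, both of them Cd244a probe sets, a share close to the 14.4% of all probe sets. A bulk sample cannot tell fewer cells with CD244 from less Cd244a RNA in each cell.

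Cd48, which encodes the ligand of CD244, was well above the array medians and did not pass. It read 10.76, 11.04 and 10.99 in WT and 10.66, 10.71 and 11.07 in IkL/L, so that the groups overlapped and both the highest and the lowest value were mutant ones. The log2 fold change was -0.12 with an interval from -0.44 to 0.20 (adjusted p = 0.861 in limma), which leaves out a 2-fold change in either direction. Set against each other on the same array, Cd48 minus Cd244a was 1.77 to 2.20 in WT and 2.89 to 3.32 in IkL/L, without overlap and with a difference of 1.06 between genotypes on the log2 scale. With the mean of the probe sets of each gene it was 0.77. The exact permutation test (two-sided) gave p = 0.1, the smallest that 3 arrays against 3 can give. This pair was added after the values had been seen.

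Slamf1, which encodes CD150 and is the positive mark of stem cells in this code, was dim and did not pass. Its brightest probe set read 5.75, 6.13 and 5.93 in WT and 6.15, 6.58 and 5.25 in IkL/L. The mutant arrays held both the highest and the lowest value, with an SD of 0.68 against 0.19 in WT, and IkL/L 3 was the low one. The log2 fold change was 0.06 (interval -0.64 to 0.75, adjusted p = 0.975). It turned to -0.03 without WT 1, to -0.02 without IkL/L 1 and to -0.23 without IkL/L 2, so that it has no settled direction. The second probe set gave 0.15 (interval -0.14 to 0.43), and the dimmest lay under the array medians on every array (3.40 to 3.67). Slamf1 minus Cd48 on the same array differed by 0.18 between genotypes (exact permutation p = 0.8). Slamf1 minus Cd244a ran from -3.14 to -2.86 in WT and from -2.50 to -1.24 in IkL/L, without overlap, a difference of 1.24 (exact permutation p = 0.1, again the smallest possible). With the added pair, 3 such differences were computed, and none can pass a threshold of 0.05 in this design.

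Cd84 and Ly9, self-binding receptors of many lymphoid and myeloid cells, were well above the array medians and did not pass. Cd84 read 8.30, 8.20 and 8.46 in WT and 7.80, 8.51 and 8.26 in IkL/L (log2 fold change -0.13, interval -0.54 to 0.28), and the mutant arrays again enclosed the WT values. Without IkL/L 1, its low array, the difference was 0.064. Ly9 read 6.76, 7.20 and 7.67 in WT and 7.10, 7.11 and 7.13 in IkL/L (log2 fold change -0.09, interval -0.57 to 0.38). Here the WT arrays were spread and the mutant arrays lay within 0.03 of each other. Without WT 3 the difference was 0.14.

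The remaining members were near or under the array medians, where a small change can be missed. Slamf9 read 5.03 to 5.14 in WT and 4.97 to 5.07 in IkL/L. Slamf6, a receptor of T, B and NK cells, read at most 4.23 by its 3 probe sets, and its brightest gave a log2 fold change of -0.34 (adjusted p = 0.608). Slamf7, known from NK and plasma cells, read 3.48 to 4.02, and Slamf8, known from macrophages, 3.24 to 3.67. Over the family, 8 of 15 probe sets had a mean above the highest array median. The log2 fold change was below 0 for 11 probe sets and above 0 for 4. In 14 of the 15, all but the brighter one of Cd244a, the 95% interval lay within a 2-fold change in either direction. Among these were the 7 with a mean under the array medians, where a narrow interval can reflect background and does not bound a change. By gene, the median log2 fold change of the family was -0.10, against -0.02 over all genes.

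**Figure D1:**
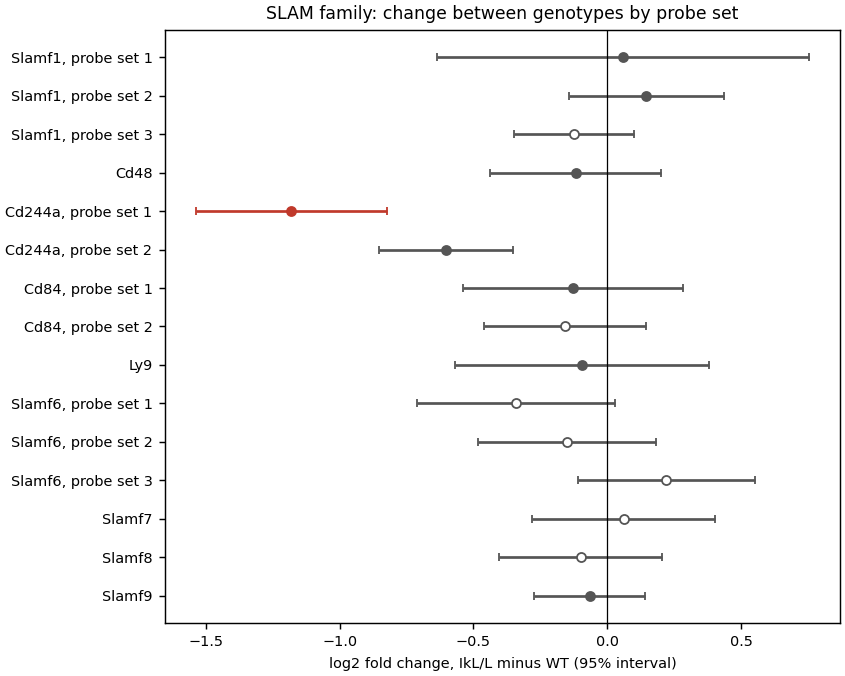
Change in IkL/L relative to WT (log2, horizontal axis) for every SLAM probe set, with its 95% interval from limma over 3 arrays per group. Red marks the probe set with an adjusted p under 0.05, the brighter one of Cd244a, and open symbols mark the 7 whose mean lay under the array medians.

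None of the adaptors and effectors of SLAM receptors passed the test. Of 18 listed genes 14 were measured, by the brightest probe set of each. In limma 0 were called, where 0.989% of all genes were. At an unadjusted p under 0.05 there were 0, against 11.2% of all genes, with a median log2 fold change of 0.08 (range -0.05 to 0.31). Sh2d1a, the gene of SAP, read 2.53 to 2.92 (log2 fold change 0.17) and cannot be told from background on any array. The genes of EAT-2 were not analysed here. Enzymes that the tyrosine motifs recruit were well above the array medians. Inpp5d, a lipid phosphatase, read 10.29 to 10.72 and Ptpn11, a tyrosine phosphatase, 10.46 to 10.65. The kinase Fyn, which SAP recruits, read 8.19 to 8.44. Ptpn6 (log2 fold change 0.24), the exchange factor Vav1 (0.31) and the kinase Csk (0.19) were low on WT 2 by their brightest probe sets, which read 9.77, 8.01 and 8.70 there and at least 10.43, 8.78 and 9.29 on the other arrays. The second probe sets of Ptpn6 (-0.15, 9.69 on WT 2) and Vav1 (-0.08, 8.12 on WT 2) were not low on WT 2 and gave differences of the other sign. Pik3c3, a lipid kinase, was lowest on WT 2 too (7.62, against at least 8.04), with a log2 fold change of 0.19, and Nck1, an adaptor, gave 0.15. The second Nck1 probe set gave -0.29, with groups apart (unadjusted p = 0.0264, adjusted p = 0.468 in limma). Of 8 adaptor and effector genes with another probe set above the array medians, 5 had probe sets that differed in sign, so that no direction is given for them. Cd2, a relative of the family that also binds CD48 in mice, read 3.30 to 3.51.

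None of the genes around the family passed either. All members lie on chromosome 1 in the RefSeq table of assembly GRCm38.p6, with Cd244a at the end of a run of 7 members and next to Ly9, and with Slamf9 and Slamf8 further along. Of 17 measured genes between the outermost members none passed in limma, with 0 at an unadjusted p under 0.05 and log2 fold changes from -0.14 to 0.27. Over all genes 0.989% passed and 11.2% had an unadjusted p under 0.05. By the brightest probe set, above 0 were Pea15a (0.27), Cfap45 (0.17), Nhlh1 (0.13), Atp1a4 (0.11), Ncstn (0.10), Pigm (0.09), Dcaf8 (0.03), Igsf8 (0.01) and Vsig8 (0.01). Below 0 were Kcnj9 (-0.14), Igsf9 (-0.12), Tagln2 (-0.12), Vangl2 (-0.11), Copa (-0.11), Pex19 (-0.09), Kcnj10 (-0.07) and Casq1 (-0.01). Of the 7 with another probe set above the array medians, 6 had probe sets of both signs (Copa, Pea15a, Pex19, Pigm, Tagln2 and Vangl2). Of 12 measured genes beyond the ends none passed, with 2 at an unadjusted p under 0.05, a share near that of all genes. Those were F11r, the gene of a junctional adhesion molecule (0.59, adjusted p = 0.414), and Fcer1a, the basophil and mast cell IgE receptor chain (1.11, 0.356). Itln1, the closest neighbour of Cd244a outside the run, read 3.87 to 4.07 on all arrays.

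**Figure D2:**
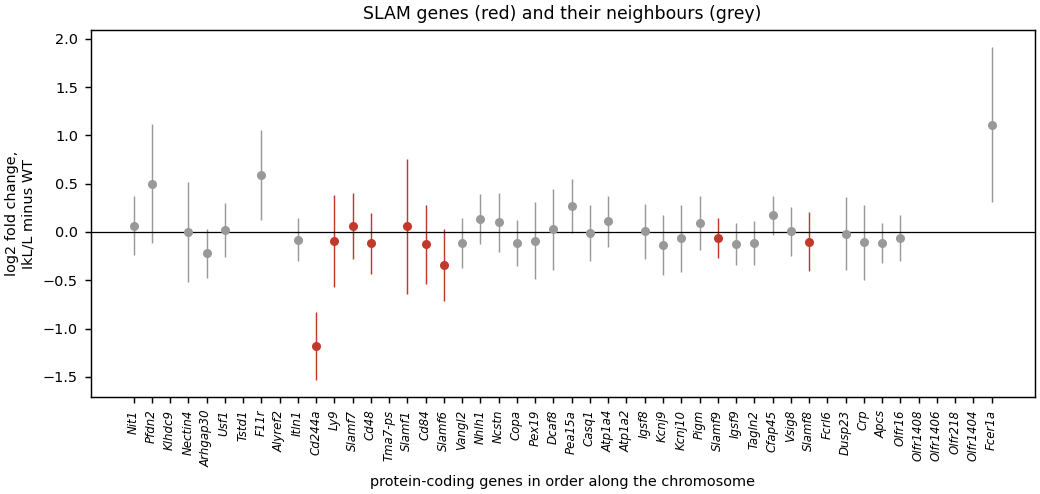
Change in IkL/L relative to WT (log2, vertical axis) with its 95% interval for the SLAM genes (red) and their neighbours (grey), each by its brightest probe set, in their order along the chromosome. Genes with no point were not read here. Cd244a lies at -1.18 and Ly9, beside it, at -0.09.

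Since CD150, CD48 and Flt3 divide LSK cells into subsets, genes of these subsets were set beside the family. The lists were drawn from textbook knowledge and chosen with earlier results of these data known. Their shares beside those of all genes, here and in the next paragraphs, are therefore a description and no test. Of 50 measured genes 8 rose and 2 fell (backgrounds of 0.748% and 0.242% of all genes). The total of 10 depended on the arrays. It was 1 without IkL/L 1, 5 without IkL/L 2, 6 without IkL/L 3, 3 without WT 1, 6 without WT 2 and 17 without WT 3. It was 19 when all probe sets of a gene were averaged, in a separate fit with p adjusted over genes.

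In the list of the CD150+ CD48- stem cells, which holds Slamf1 itself, 2 of 15 genes rose, Fgd5 (1.65) and the angiopoietin receptor Tek (1.05). Of the others 9 were above 0, among them Procr (0.69, adjusted p = 0.409) and Hoxb5 (0.66, 0.468), and 4 below, among them Mecom (-0.47, 0.328) and Hlf (-0.59, 0.447). Hoxb5 lay under the array medians on every array but IkL/L 2. In the list of MPP2, which carry both CD150 and CD48 and lean to megakaryocytes and erythroid cells, 3 of 12 rose: Selp (3.76), Itgb3 (1.85) and Vwf (1.73). The paper names Vwf among genes with roles in stem and progenitor cells, so that its rise does not tell MPP2 from stem cells. Itga2b (0.86, adjusted p = 0.118), Klf1 (1.01, 0.143) and Gata1 (0.61, 0.398) did not pass, though their groups were apart. In the list of MPP3, which carry CD48 without CD150 and lean to granulocytes and macrophages, 3 of 11 rose: Csf1r (1.76), Ms4a3 (2.38) and Elane (2.16). Ly86 (0.87, 0.055), Ctsg (1.12, 0.075) and Irf8 (0.77, 0.1) stood above their WT values on every mutant array.

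The list of MPP4 was that of the lymphoid-leaning subset with CD48 and Flt3 but no CD150. By the brightest probe sets, 2 of its 12 measured genes fell, Rag2 (-1.13) and Il12a (-0.70), and none rose. Rag2 read 4.57 to 4.81 in IkL/L, near or under the array medians, so that the size of its fall is uncertain. The groups did not overlap in 11 of the 12, against 17.2% of all genes, and 10 of these 11 were lower. They did not overlap in 9 of 11 MPP3 genes and 8 of 12 MPP2 genes, all higher, and in 6 of 15 stem cell genes, of which 4 were higher and 2 lower. Flt3, the receptor that marks this subset, read 10.97, 10.79 and 10.31 in WT and 9.56, 10.05 and 9.80 in IkL/L. Its mutant values all lay under its WT values, with a log2 fold change of -0.88 that did not pass (adjusted p = 0.132 in limma). Dntt (-0.78, adjusted p = 0.053), Satb1 (-0.83, 0.071) and Cd52 (-0.86, 0.082) behaved in the same way. A dimmer Satb1 probe set did pass (-0.88, adjusted p = 0.0314 in limma), and no other Satb1 probe set did. Ighm was the exception (1.37, 0.231). The next brightest Ighm probe set gave 1.27 and a dimmer probe set 2.58. Neither passed, but in both every mutant value lay above every WT value. Another Ighm probe set gave -0.05, with overlapping groups, and the rest lay under the array medians. The list medians were 0.30, 0.57, 0.87 and -0.81 for the stem cell subset, MPP2, MPP3 and MPP4, against -0.02 over all genes. The mean level of the MPP4 list was 8.78 to 9.17 in WT and 8.15 to 8.44 in IkL/L, without overlap. The mean levels of the MPP2 list (at most 7.98 in WT and at least 8.51 in IkL/L) and of the MPP3 list (at most 10.01 and at least 10.65) did not overlap either, in the other direction, while those of the stem cell list overlapped (up to 7.76 in WT and from 7.46 in IkL/L). The means of Cd48, carried by MPP2, MPP3 and MPP4 alike, differed by less than its SD in either group.

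**Figure D3:**
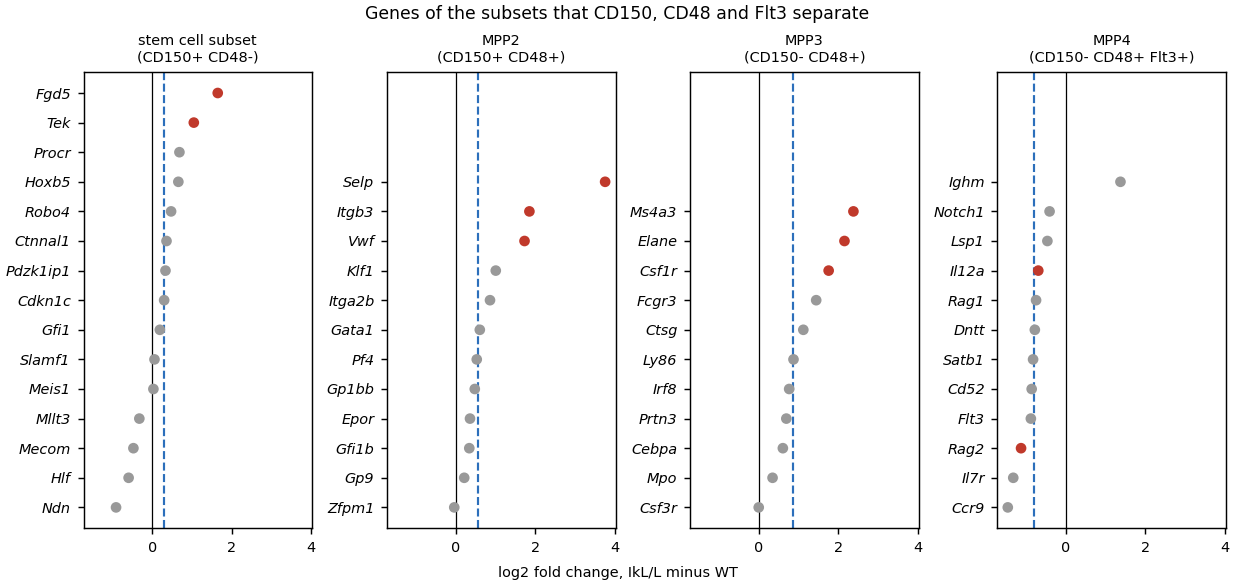
Change in IkL/L relative to WT (log2, horizontal axis) for the genes listed for each subset, 1 point per gene by its brightest probe set, red where the adjusted p was under 0.05. Dashed lines are the list medians of 0.30, 0.57, 0.87 and -0.81 from left to right, and 11 of the 12 MPP4 genes lie below 0.

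The order of the mutant arrays by Slamf1 was that of most stem cell genes, though its wide spread there was not shared by all. The SD in WT and IkL/L was 0.26 and 0.20 for Meis1, 0.33 and 0.34 for Hlf, 0.12 and 0.08 for Gfi1, and 0.13 and 0.18 for the second Slamf1 probe set. By its brightest probe set, Slamf1 was highest on IkL/L 2 and lowest on IkL/L 3, and so were 13 of the other 14 measured genes of the stem cell list, against 20% of all genes. Ndn read 7.47, 8.26 and 6.47 on IkL/L 1, 2 and 3, Hoxb5 4.69, 5.21 and 4.10, and Procr 8.83, 9.24 and 8.38. Of these, Hoxb5 was above the array medians on IkL/L 2 only. Gfi1 was the exception. The same order held in 6 of 12 MPP2 genes, 4 of 12 MPP4 genes and 0 of 11 MPP3 genes. In WT the order of Slamf1, highest on WT 2 and lowest on WT 1, was shared by 0 of the other 14 stem cell genes, against 17.5% of all genes. Among the other 8 members it was shared by 2, Cd48 and Cd244a, a share near that of all genes. The second Slamf1 probe set was also highest on IkL/L 2 (5.80) but lowest on IkL/L 1 (5.46). This order was looked for after the values of Slamf1 had been seen, and the arrays are the same for all genes.

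**Figure D4:**
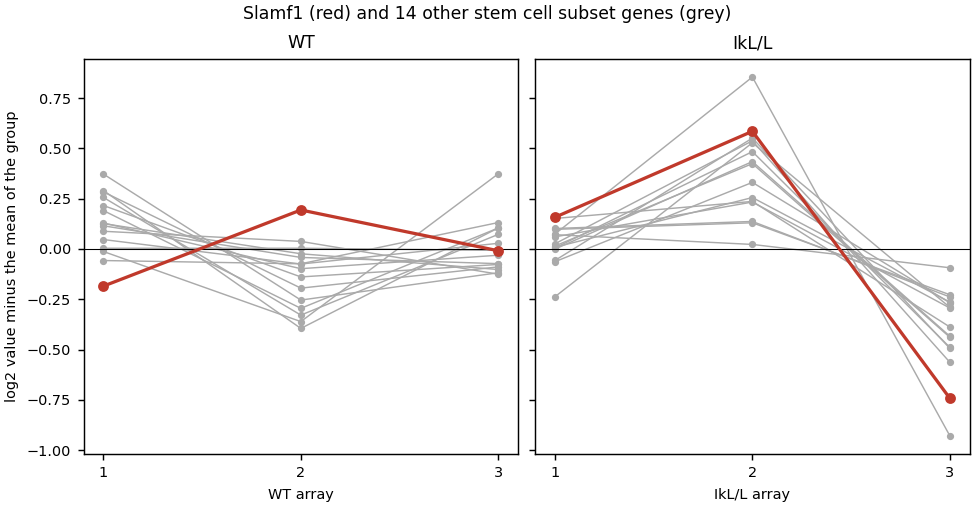
Log2 value minus the mean of its group (vertical axis) on the WT (left) and IkL/L (right) arrays (horizontal axis) for Slamf1 (red) and the 14 other measured genes of the stem cell list (grey), by the brightest probe set. Lines join the points of a gene and imply no order of the arrays. On the mutant arrays 13 of the 14 grey lines peak on IkL/L 2 and are lowest on IkL/L 3, as Slamf1 is, and in WT none follows Slamf1.

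Markers of other cells that carry SLAM receptors were read on the same arrays, and their part in the fall of Cd244a was not tested. CD244 is best known from NK cells. Of 5 measured NK cell markers none passed in limma, with 0 at an unadjusted p under 0.05, and their mean level was 5.33 to 5.45 in WT and 5.30 to 5.33 in IkL/L. Ncr1, Gzma, Klrk1 and Prf1 lay under the array medians on every array, and Nkg7 read at least 10.70 on all arrays. Of 6 T cell markers Thy1 rose (2.82-fold, adjusted p = 0.0223), while Cd3g and Cd3d lay under the array medians and Cd3e read 5.50 to 5.78, and the mean level was 5.01 to 5.11 in WT and 5.35 to 5.39 in IkL/L. The 5 measured basophil and mast cell markers were higher on every mutant array than on any WT array (17.2% of all genes did not overlap in either direction). Mcpt8 was called (2.47, against 0.989% of all genes called). The mean level of the 5 markers was 6.55 to 7.07 in WT and 7.86 to 8.12 in IkL/L. Cpa3 (0.42) and Ms4a2 (0.67) did not pass. Of 4 B cell markers Ms4a1 rose (2.38), while Cd79a (0.23) and Cd79b (0.40) did not pass, with a mean level of 5.21 to 5.32 in WT and 5.78 to 6.23 in IkL/L. Ms4a1 read 3.32 to 3.54 in WT, under the array medians, so that the size of its rise is uncertain. Of 5 plasma cell markers Mzb1 rose (2.25) and Sdc1 fell (-1.39), and Jchain gave 2.79 (adjusted p = 0.112 in limma), with a mean level of 6.33 to 6.63 in WT and 6.58 to 7.51 in IkL/L. Macrophage markers, 6 in number, had a mean level of 4.74 to 5.18 in WT and 4.98 to 5.15 in IkL/L, and none passed (2 at an unadjusted p under 0.05), with Adgre1 at 0.11, C1qa at -0.87 and C1qb at -0.21. Cd68, of the same list, was higher on every mutant array (7.97 to 8.25, against 6.44 to 7.28 in WT) and gave 1.17 (adjusted p = 0.0651 in limma). None of 4 dendritic cell markers passed (Itgax -0.58, Siglech 0.04, Cd209a -0.19; 1 at an unadjusted p under 0.05), with a mean level of 4.27 to 4.40 in WT and 4.07 to 4.13 in IkL/L. None of 5 megakaryocyte markers passed (Pf4 0.53, Itga2b 0.86, Gp9 0.21; 2 at an unadjusted p under 0.05), with a mean level of 7.20 to 7.85 in WT and 7.74 to 8.19 in IkL/L. None of 4 erythroid markers passed in limma (Klf1 1.01, Alas2 -0.14, Hba-a1 0.08, with 2 at an unadjusted p under 0.05). Their mean level was 5.39 to 5.53 in WT and 5.68 to 5.90 in IkL/L. Pf4, Itga2b, Gp9 and Gp1bb of the megakaryocyte list, and Klf1 and Epor of the erythroid list, also stand in the MPP2 list. For these genes the values are the same ones and no separate reading. Among 5 genes of stroma and endothelium, with a mean level of 5.42 to 6.85 in WT and 5.75 to 6.03 in IkL/L, Cdh5 rose (2.50). Its WT values, 3.60 to 3.98, lay under the array medians, so that the size of this rise is uncertain too. Sparc gave -1.24 (adjusted p = 0.566), and Col1a1 and Col1a2 were highest on WT 1 (6.36 and 10.12) and WT 2 (5.47 and 9.56), where Cd244a was 8.71 and 9.27 against 8.79 on WT 3.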

How the data were processed

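Total RNA of sorted LSK cells (100 ng, 2 labelling cycles) was hybridised to Affymetrix mouse arrays. The deposited values are log2 values that the authors made with RMA, which corrects background, quantile-normalizes and summarises probes, under R 2.8 per the labels. Per the methods, thymocyte arrays were normalized together with these. Quantile normalization removes changes in the total signal, and RMA gives no detection call. GEO's annotation of the array gave the gene names (34945 with 1 gene, 932 with several, 9160 unlisted), updated by Entrez number (34741 matched) in RefSeq GRCm38.p6. A gene was read from the probe set with the highest mean over 6 arrays. IkL/L and WT were compared with limma 3.58.1 in R 4.3.3 (genotype only, two-sided), Benjamini-Hochberg over all probe sets, threshold 0.05. Gene means were fitted apart, with p adjusted over the 18193 genes. The fit over probe sets was tested on simulated data. It recovered 30% of 1.5-fold and 92% of 2-fold changes there, and 6.43% of its calls were false. The simulated noise was normal and independent, with each variance averaged with the median one, so that these shares need not hold for the real arrays. There Cd244a passed at 2.27-fold, but Ccr9 (2.76-fold, adjusted p = 0.208 in limma) and Jchain (6.93-fold, 0.112) did not. Changes under 2-fold, and larger ones in genes that vary between arrays, can thus be missed. Differences between 2 genes on 1 array were compared by an exact permutation test. Named genes were all members, 6 adaptors with the smallest p, passing genes and up to 3 more per subset list, the neighbours between members, passing ones beyond them, and the first 3 and passing markers per cell type. Others were chosen after their values were seen. Members and lists were chosen with earlier results of these data known. Upstream sequences come from RefSeq (GRCm38.p6). Protein sequences were not analysed here. Alternatives were another normalization, centring, filters, moderation, array weights, replicate block, gene means and leaving out each array.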

Additional observations from a re-analysis of the deposited data

How the results depend on the processing

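The call of Cd244a held under each of the 7 alternatives that keep all arrays, with an adjusted p of 0.011 to 0.0388. Its second probe set passed with array weights (-0.59, adjusted p = 0.0453), which gave 2 called SLAM probe sets in place of 1. Leaving out 1 array gave 0 to 1 called SLAM probe sets, 0 to 1 called SLAM genes and 1 to 17 called subset genes, and averaging all probe sets of a gene gave 19 called subset genes in place of 10. No adaptor or neighbour passed under any alternative. Directions turned, for changes that had not passed, in Cd84 without IkL/L 1 (range over the arrays left out -0.29 to 0.064), in Ly9 without WT 3 (-0.32 to 0.14), in Slamf7 without IkL/L 2 (-0.11 to 0.16), and in Slamf1 without WT 1, IkL/L 1 or IkL/L 2 (-0.23 to 0.43). Slamf1 minus Cd48 ran from -0.17 to 0.67 with 1 array left out and turned without IkL/L 2. Cd48 minus Cd244a was 0.77 with probe sets averaged. The cause of these shifts was not tested. Samples of 1 number did not deviate together (r of 0.00840, -0.112 and 0.0789), and 2 of 6 samples correlated best with their own number. With the replicate block 143 probe sets were called in place of 251, and 1 of 15 SLAM probe sets and 8 of 50 subset genes, with Cd244a at an adjusted p of 0.0388. The number of arrays limits the precision, and values under the array medians could not be told from background.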
